A study of Mus musculus with 12 samples.

Results

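The 10 genes described here encode digestive enzymes that acinar cells of the exocrine pancreas make and secrete: the elastases Cela1, Cela2a and Cela3b, the trypsinogen Prss2, the chymotrypsinogen Ctrb1, the carboxypeptidases Cpa1 and Cpb1, the lipases Pnlip and Cel, and the amylase Amy2a5. The choice of these genes was made with earlier results of these data known. They were taken by name, as the genes that 11 probes of the array carry in their gene name field. They are 10 of 20370 genes and unnamed transcripts tested across the arrays, and all 10 passed the filter on dim probes, by which at least 6 of 12 arrays had to be well above background (9 of the 10 were so on all 12 arrays). RNA came from macrophages sorted by flow cytometry from pancreas tumours of female C57/B6 mice aged 8-10 weeks, in animals that had received tumour implants, and each array held 1 RNA in 1 colour (Cy5). The samples were 6 of YFP+ macrophages and 6 of YFP− macrophages, and the sample titles give each of 6 tumour numbers to 1 sample of either group (called tumours 1 to 6 here), so that same-numbered samples were read as sorted from 1 tumour. The labels do not give a genotype for these samples, and the series' design text lists wild-type, KPC and FLT3-CRE/LSL-YFP mice as donors of the sorted macrophages. In FLT3-CRE/LSL-YFP mice a Cre recombinase driven by the Flt3 gene, which is active in blood-forming progenitors, switches on the YFP reporter for good, so that YFP marks cells with such a progenitor in their past. No label says whether a tumour came from 1 animal or from pooled animals, so the p-values below measure the spread between these samples.

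Acinar cells store their enzymes in granules, the proteases as inactive precursors (zymogens), and release them into the ducts. Trypsin, once activated in the gut, activates the other proteases there. The genes are switched on together by a set of acinar transcription factors, among them the PTF1 complex of Ptf1a and Rbpjl, and macrophages are not known for making them. Their transcripts are among the most abundant of the pancreas, and in bulk RNA of a sorted population a lower level can mean fewer cells of a type or less RNA per cell, which cannot be told apart here.

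Hybridisation was spread over 3 slides of 4 arrays, and each slide carried 2 arrays of YFP+ and 2 of YFP− macrophages. The 75th percentile of the processed signal, the value to which every signal below is related, was 3264 to 3931 on YFP+ arrays and 2121 to 3332 on YFP− arrays, and 63.0% to 66.1% of probes were well above background on YFP+ arrays against 61.2% to 63.9% on YFP− arrays. Precision is limited by the 6 arrays per group. The sorted population carried its label's markers: all 13 tested core macrophage genes, among them Csf1r, Adgre1, Cd68 and C1qb, were well above background on every array. Their summed signal (in units of each array's 75th percentile) was 239.6 to 397.5 on YFP+ arrays and 266.5 to 456 on YFP− arrays. Between the groups 0 of the 13 passed limma's test (1 at an unadjusted p under 0.05, and 0 with tumour as a block).

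Each probe is a DNA strand of 60 bases. The sequences of 4 member probes are shown, as compared with the other probes of the array. The Cela1 probe, behind the one call of the unblocked test below, shared no run of 14 or more bases with any other probe. Only probes were compared, so whether the Cela1 probe matches another transcript was not tested. The Amy2a5, Cela3b and Prss2 probes each shared a run of 14 or more bases with the probe of a near relative. Capitals mark the longest run shared with that relative's probe.
Cela1 probe: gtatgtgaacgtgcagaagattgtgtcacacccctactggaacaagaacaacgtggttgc
Amy2a5 probe: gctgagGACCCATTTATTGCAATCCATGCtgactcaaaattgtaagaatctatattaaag
Amy1 probe: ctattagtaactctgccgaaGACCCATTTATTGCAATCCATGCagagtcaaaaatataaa
Cela3b probe: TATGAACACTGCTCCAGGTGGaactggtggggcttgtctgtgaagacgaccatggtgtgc
Cela3a probe: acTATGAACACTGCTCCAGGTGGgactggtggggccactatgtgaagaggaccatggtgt
Prss2 probe: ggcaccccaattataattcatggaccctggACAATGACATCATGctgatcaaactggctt
Prss1 probe: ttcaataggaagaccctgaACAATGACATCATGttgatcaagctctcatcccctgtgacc
By the array's own mm9 annotation the Cela1 probe lies at chr15:100515014-100515073 on the minus strand and the Amy2a5 probe at chr3:113052114-113052173 on the minus strand. The Cela3b probe lies at chr4:136979192-136979251 on the minus strand and the Prss2 probe at chr6:41473937-41473996 on the plus strand. Amy1, the salivary and liver form of amylase, shared a run of 23 bases with Amy2a5 and was identical at 39 of 46 aligned bases. Cela3a, a sister elastase, shared 21 bases with Cela3b and was identical at 52 of 58 aligned bases. Prss1, another trypsinogen, shared 14 bases with Prss2 and was identical at 36 of 49. Levels at these 3 probes may therefore include transcripts of the relative. The Prss1 values given further below were read at another Prss1 probe than the one printed. A second Amy2a5 probe, at chr3:113058788-113058847 on the minus strand, is annotated to Amy1 transcripts as well, so it reads both genes:
Amy2a5 second probe: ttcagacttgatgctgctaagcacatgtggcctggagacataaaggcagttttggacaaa
The other members were read at 1 probe each, which the array's annotation places on chromosome 6 (Cpa1), 3 (Cpb1), 19 (Pnlip), 2 (Cel) and 8 (Ctrb1). The Cela2a probe has no genome position there.

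Levels are log2 of the processed signal minus log2 of the array's 75th percentile, so that 0 is a signal at that percentile. All 10 enzymes averaged lower on YFP+ arrays than on YFP− arrays, with log2 differences (YFP+ minus YFP−) of -3.43 to -1.04 and a median of -1.58, against -0.03 over all 20370 features, of which 52.8% were lower on YFP+ arrays. In limma's moderated test without a block, with Benjamini-Hochberg adjustment over all features, 1 of the 10, Cela1, passed the threshold of 0.05. The background for that count is 1.41% of all features called lower in YFP+. At an unadjusted p under 0.05, 5 of the 10 were lower (Cela1, Cel, Amy2a5, Ctrb1 and Prss2), against 7.51% of all features. For all 10 genes the values of the groups overlapped, while 1.46% of all features lay lower on every YFP+ array than on any YFP− array.

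Tumour by tumour, the mean difference over the 10 enzymes (YFP+ minus YFP−) was -3.14 in tumour 1, -0.49 in tumour 2, -1.16 in tumour 3, -3.18 in tumour 4, -1.0 in tumour 5 and -1.68 in tumour 6, so it was below 0 in all 6 tumours. Both arrays of tumour 4, of tumour 5 and of tumour 6 shared a slide. Those of tumours 1, 2 and 3 lay on different slides, so their differences, and the blocked fit below, mix slide with group. Cela1, Prss2, Cel and Amy2a5 were lower in YFP+ in 6 of 6 tumours, against 5.29% of all features, and the other 6 members in 5 of 6, with the exception in tumour 2 for all of these but Cpb1 (0.01 in tumour 3). With tumour as a block in limma's fit, again 1 member was called, but it was Amy2a5 (adjusted p = 0.0419) and not Cela1 (adjusted p = 0.0896), against 1.21% of all features called lower. At an unadjusted p under 0.05 the blocked fit gave 8 members (all but Cela2a and Cela3b) in place of 5, against 7.51% of all features. Prss2 (adjusted p = 0.0612) and Cel (0.0635) missed the adjusted threshold in that fit.

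**Figure D1:**
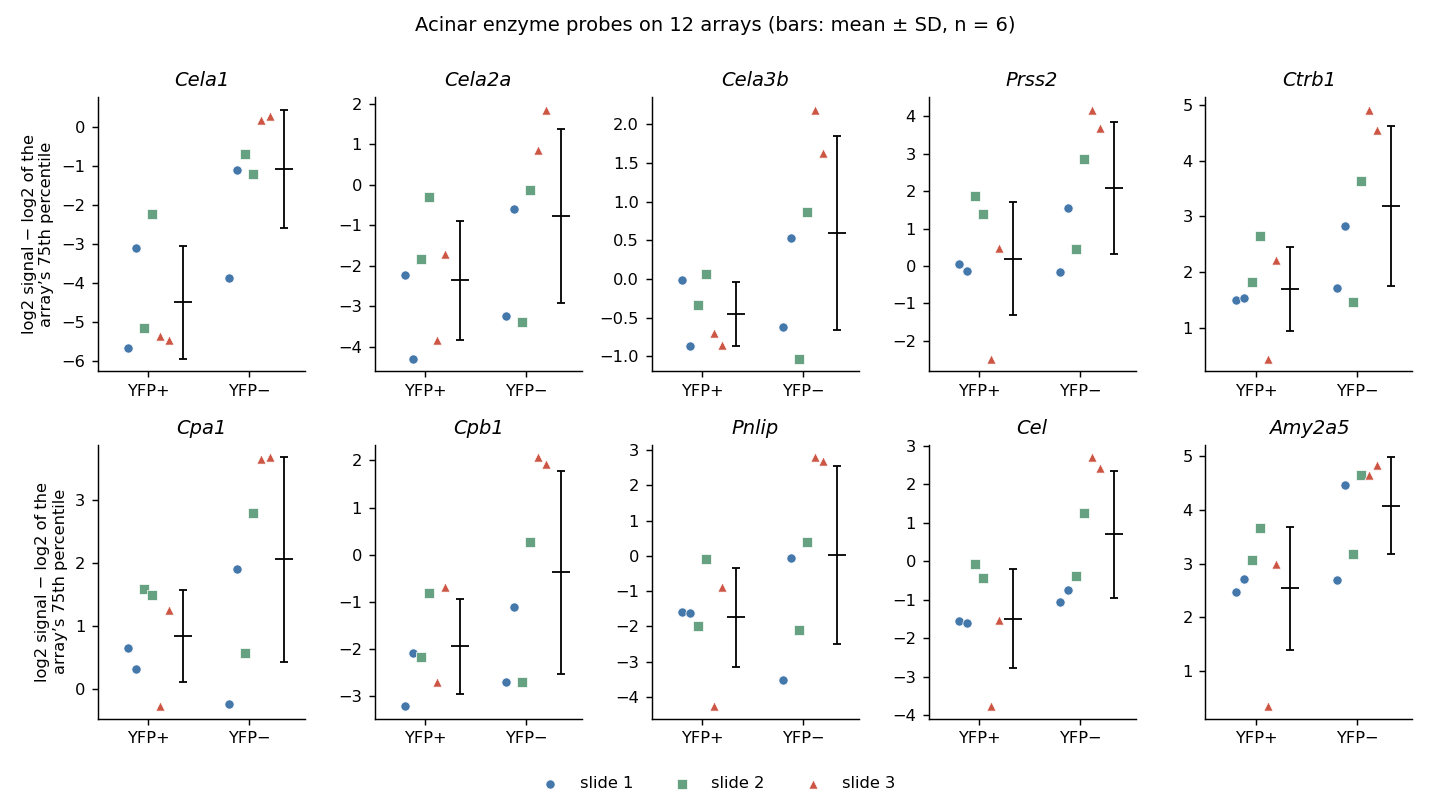
Level of each enzyme probe on the 12 arrays, as log2 signal minus log2 of the array's 75th percentile (vertical axis, its own range in each panel), for YFP+ arrays at the left and YFP− arrays at the right. Points are arrays, shapes and colours give the slide, and bars give the mean ± SD of 6 arrays. The YFP− arrays of slide 3 (red triangles) are the 2 highest for 9 of the 10 genes.

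The elastases cleave proteins. Cela1 was -5.67, -5.26 and -2.24 on YFP+ arrays and -3.89, -0.91 and 0.28 on YFP− arrays (lowest, median and highest of 6). All 6 YFP+ arrays lay below the YFP− median, and the overlap came from 2 YFP+ arrays, of tumours 5 and 6 (-2.24 and -3.12), that were above the YFP− array of tumour 3 (-3.89). In processed signal before scaling these 2 YFP+ arrays read 693 and 453 and the other 4 read 71.0 to 96.1, while the YFP− array of tumour 3 read 143 and the other 5 read 1159 to 3771. Cela1 fell by 3.43 on the log2 scale in YFP+ arrays (SE 0.78, adjusted p = 0.0495), a 10.7-fold lower mean level. Its probe was well above background on 2 of 6 YFP+ arrays and on 6 of 6 YFP− arrays, so 4 of the YFP+ values carry only an upper bound on the level. Cela1 would have passed the filter on its YFP− arrays alone. The call was close to the threshold: it was lost with tumour as a block (SE 0.75, adjusted p = 0.0896) and kept in 7 of 37 alternative fits, 3 of them among the 12 that left out 1 array each, where the adjusted p ran from 0.0119 to 0.114. Between same-numbered samples Cela1 differed by -5.74 (tumour 4) to -1.03 (tumour 5).

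Cela2a was -4.30, -2.03 and -0.29 on YFP+ arrays and -3.39, -0.36 and 1.86 on YFP− arrays (lowest, median and highest of 6). Its difference was -1.59 (SE 0.97, adjusted p = 0.61). Cela3b was -0.86, -0.52 and 0.06 on YFP+ arrays and -1.03, 0.70 and 2.19 on YFP− arrays, and it differed by -1.04 (SE 0.50, adjusted p = 0.47). Cela3b had the narrowest spread of the members among YFP+ arrays, and its lowest value of all 12 was on a YFP− array, that of tumour 2.

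Prss2 and Ctrb1 encode the precursors of trypsin and chymotrypsin, both endopeptidases. Prss2 was -2.48, 0.27 and 1.86 on YFP+ arrays and -0.15, 2.21 and 4.18 on YFP− arrays (lowest, median and highest of 6), and its difference was -1.90 (SE 0.87, adjusted p = 0.44). Ctrb1 was 0.44, 1.68 and 2.64 on YFP+ arrays and 1.46, 3.23 and 4.92 on YFP− arrays, and its difference was -1.49 (SE 0.61, adjusted p = 0.36). For both genes the lowest array was the YFP+ array of tumour 3 and the highest the YFP− array of tumour 1, both on slide 3.

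Cpa1 and Cpb1 encode carboxypeptidases A1 and B1, which remove residues from the carboxyl end of peptides. Cpa1 was -0.28, 0.95 and 1.58 on YFP+ arrays and -0.24, 2.33 and 3.67 on YFP− arrays (lowest, median and highest of 6), and its difference was -1.22 (SE 0.67, adjusted p = 0.55). Cpb1 was -3.21, -2.12 and -0.69 on YFP+ arrays and -2.70, -0.42 and 2.07 on YFP− arrays, and its difference was -1.57 (SE 0.88, adjusted p = 0.57). In each gene the YFP− arrays spread wider than the YFP+ arrays, with an SD of 0.73 in YFP+ and 1.62 in YFP− for Cpa1 and of 1.01 in YFP+ and 2.15 in YFP− for Cpb1 (n = 6 each).

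Pnlip encodes pancreatic triglyceride lipase, the main enzyme of fat digestion, and Cel a bile salt-activated lipase that also splits cholesterol esters. Pnlip was -4.26, -1.60 and -0.09 on YFP+ arrays and -3.51, 0.15 and 2.80 on YFP− arrays (lowest, median and highest of 6). Its difference was -1.77 (SE 1.07, adjusted p = 0.61). Cel was -3.76, -1.53 and -0.06 on YFP+ arrays and -1.05, 0.43 and 2.70 on YFP− arrays, and its difference was -2.19 (SE 0.78, adjusted p = 0.27). All 6 YFP+ arrays lay below the YFP− median for both lipases, yet the signal of Pnlip varied 133-fold and that of Cel 88.2-fold over the 12 arrays.

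Amy2a5, which encodes the pancreatic amylase that splits starch, was 0.35, 2.85 and 3.66 on YFP+ arrays and 2.70, 4.56 and 4.83 on YFP− arrays (lowest, median and highest of 6). All 12 arrays were above their own 75th percentile at this probe. The difference was -1.54 (SE 0.55, adjusted p = 0.27), and the YFP+ array of tumour 3 was at 0.35, where the other YFP+ arrays started at 2.47; without that array the difference was -1.10. Between same-numbered samples the differences lay closer together than for the other members, from -2.35 (tumour 3) to -0.71 (tumour 2), and with tumour as a block Amy2a5 passed the threshold (SE 0.26, adjusted p = 0.0419). That call was lost when both arrays of any 1 tumour were left out (adjusted p from 0.0547 to 0.122). The second Amy2a5 probe was -5.99, -0.32 and 0.66 on YFP+ arrays and -1.99, 1.86 and 3.55 on YFP− arrays, and tested on its own it differed by -2.58 (SE 1.21, adjusted p = 0.47). It was not well above background on the YFP+ array of tumour 3, and its values tracked those of the first probe over the 12 arrays (Pearson r = 0.96, with the arrays' RNA in common).

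The median spread of the enzymes within each group was wider than that of all features. Over the 10 genes the SD among the 6 YFP+ arrays had a median of 1.22 (0.41 to 1.52), against 0.55 for all features, and the SD among the 6 YFP− arrays had a median of 1.63 (0.90 to 2.52), against 0.63 for all features. Cela3b, at 0.41 among YFP+ arrays, was narrower there than 66.7% of features. Much of that spread was shared. Across the 12 arrays the 45 pairs of members had Pearson correlations of 0.62 to 0.97 with a median of 0.88, and after each group's mean was removed the range was 0.49 to 0.97 with a median of 0.86. All points of these correlations share the same RNA, array and centring, so they describe this set of libraries. Ctrb1 and Cpa1 followed the other members most closely (median r = 0.93 each) and Cela1 least (median r = 0.71).

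The shared pattern can be read array by array as the mean deviation of the 10 genes from their own 12-array means. It was -2.42 on the YFP+ array of tumour 3, -1.12 on tumour 2, -1.08 on tumour 6, -0.59 on tumour 4, -0.49 on tumour 1 and 0.37 on tumour 5. On YFP− arrays it was 2.65 for tumour 1, 2.59 for tumour 4, 1.37 for tumour 5, 0.60 for tumour 6, -0.63 for tumour 2 and -1.26 for tumour 3. The YFP− arrays of tumours 1 and 4, both on slide 3, held the highest value for 6 and 4 of the 10 genes and were above the gene's mean for all 10. The YFP+ array of tumour 3, also on slide 3, held the lowest value for 6 of the 10. The YFP− arrays of tumours 2 and 3 were below the mean of most members and within the range of the YFP+ arrays.

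**Figure D2:**
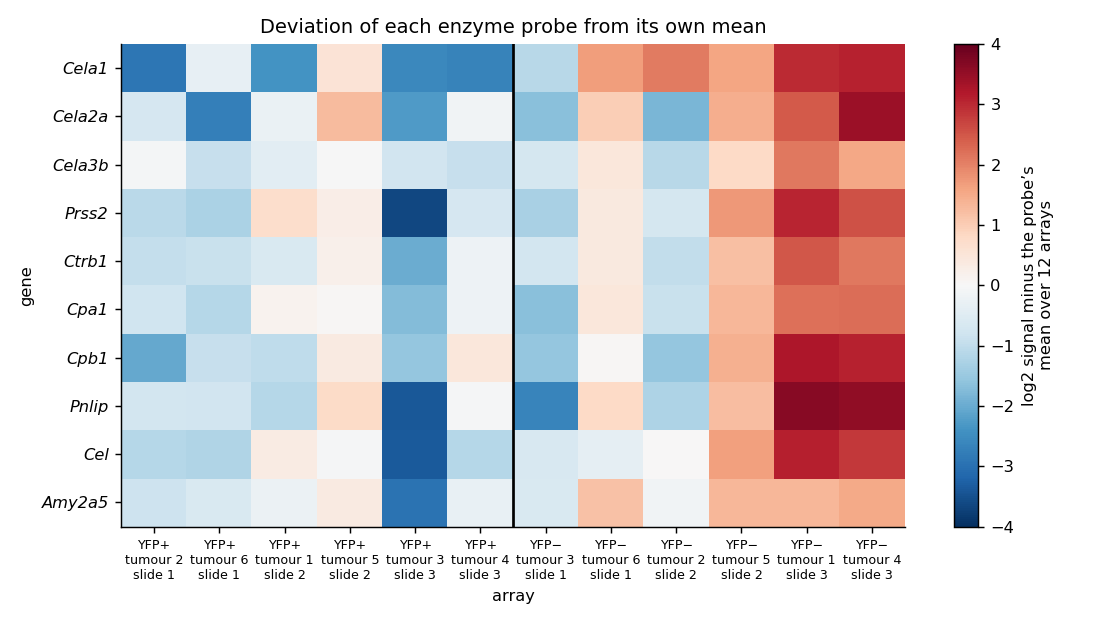
Deviation of each enzyme probe (rows) from its own mean over the 12 arrays (columns, YFP+ at the left of the line and YFP− at its right, ordered by slide), in log2 units by colour. The 2 columns at the far right, the YFP− arrays of slide 3, average 2.65 and 2.59, and the YFP+ array of tumour 3 averages -2.42.

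The same members were compared within each slide, with 2 YFP+ and 2 YFP− arrays each. The groups on a slide had only 1 tumour in common. Slide 3 held YFP+ of tumours 3 and 4 and YFP− of tumours 1 and 4. Slide 1 held YFP+ of tumours 2 and 6 and YFP− of tumours 3 and 6. Slide 2 held YFP+ of tumours 1 and 5 and YFP− of tumours 2 and 5. Differences within a slide therefore mix tumour with group. On slide 3 all 10 were lower in YFP+, with log2 differences of -5.64 (Cela1) to -2.68 (Cela3b) and a median of -3.91, and both YFP+ arrays lay below both YFP− arrays for all 10 genes, against 23.0% of all features on that slide. On slide 1 the median was -0.74, 9 of 10 were lower in YFP+, and 2 (Cel and Ctrb1) had both YFP+ arrays below both YFP− arrays, against 25.9% of all features. On slide 2 the median was -0.23, 9 of 10 were lower, and 1 (Cela1) was separated in that way, against 20.4% of all features. In limma fits to 1 slide alone, with 4 arrays each, 0 of 20370 features passed the adjusted threshold; at an unadjusted p under 0.05 there were 10 members on slide 3 against 5.4% of all features, 0 on slide 1 against 5.7% and 0 on slide 2 against 4.86%.

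Prss2, for example, differed by -4.94 on slide 3, -0.73 on slide 1 and -0.03 on slide 2. Pnlip differed by -5.31 on slide 3 and -0.18 on slide 2, and its sign was the opposite on slide 1 (0.19). Cel differed by -5.21 on slide 3, -0.67 on slide 1 and -0.68 on slide 2. Cela2a differed by -4.14 on slide 3 and -1.34 on slide 1, and by 0.70 on slide 2, where its YFP+ arrays averaged higher. Cela1 differed by -5.64 on slide 3, -2.75 on slide 2 and -1.88 on slide 1. Cela1 had its smallest difference on the slide that held the YFP− array of tumour 3.

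Amy2a5 differed by -3.06 on slide 3, -0.55 on slide 2 and -1.0 on slide 1. Ctrb1 differed by -3.42 on slide 3, -0.32 on slide 2 and -0.75 on slide 1. The carboxypeptidases had smaller differences on slides 1 and 2, Cpa1 at -0.34 and -0.13 and Cpb1 at -0.74 and -0.27, and lay at -3.17 (Cpa1) and -3.69 (Cpb1) on slide 3. Cela3b differed by -2.68 on slide 3, -0.06 on slide 2 and -0.39 on slide 1. On slide 3 itself the YFP+ and YFP− means were -2.57 and 2.74 for Pnlip and -1.01 and 3.93 for Prss2. For Cel they were -2.65 and 2.56. These are 39.7-fold (Pnlip), 30.7-fold (Prss2) and 36.9-fold (Cel) lower mean levels on its YFP+ arrays, across partly different tumours.

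**Figure D3:**
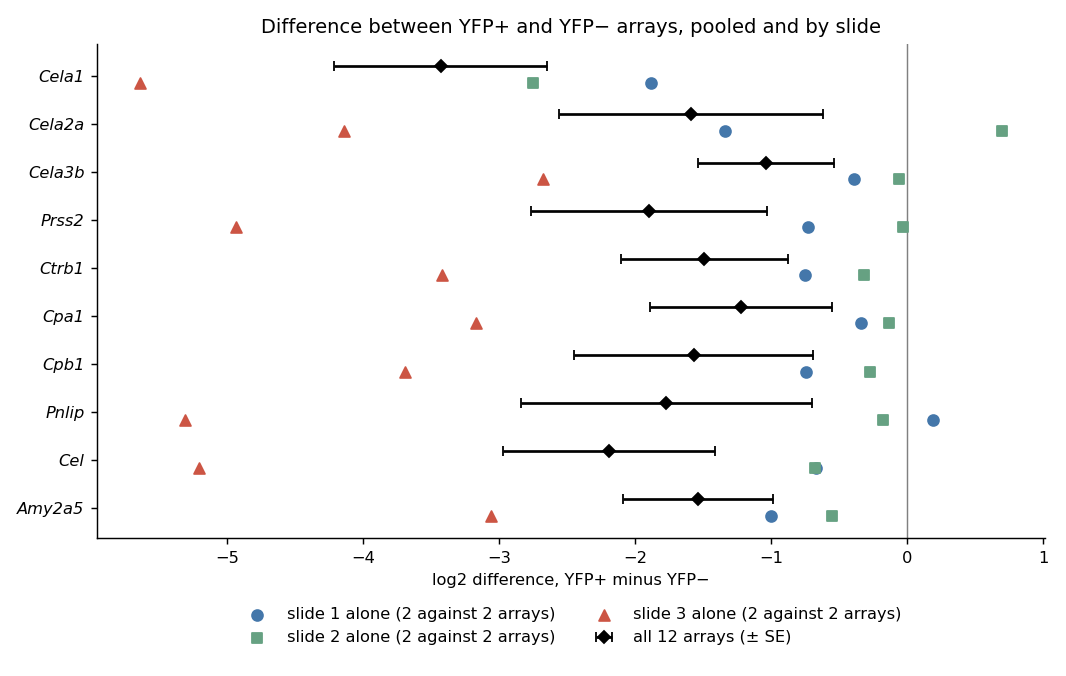
Log2 difference of each enzyme, YFP+ minus YFP−, over all 12 arrays (black diamonds with SE) and within each slide (coloured points). Each coloured point compares 2 with 2 arrays of partly different tumours, with no error drawn. The grey line marks no difference. For every gene the slide 3 value, between -5.64 and -2.68, lies left of those of slides 1 and 2.

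A test of whether the group difference depended on the slide (limma F test of the interaction) called 0 of the 10 members, the lowest adjusted p being 0.60 (Cel), where 2 of 20370 features or 0.00982% were called. At an unadjusted p under 0.05 it gave 4 members (Cel, Prss2, Cela3b and Pnlip), against 4.79% of all features. A test of the slide itself, with the group in the model, called 0 of the 10 members (adjusted p 0.17 to 0.81) against 20.6% of all features, and 0 of 10 at an unadjusted p under 0.05 against 35.9%. The slides differed in which tumours they carried as well as in the slide, and the 2 cannot be told apart. Without slide 3 the median difference of the members was -0.44, 9 of 10 were lower in YFP+ and none was called by limma. Only Cela1 had an unadjusted p under 0.05 (-2.32, adjusted p = 0.355), as 13.6% of all features did in either direction. Without only the 2 YFP− arrays of slide 3, chosen after the values were seen, the median was -0.62. All 10 remained below 0 and none was called. Again Cela1 alone had an unadjusted p under 0.05, against 18.2% of all features in either direction. When the YFP+ array of tumour 3 was left out as well, the median was -0.39, and Pnlip turned to 0.09.

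The enzymes were set beside other genes of the pancreas and of the tumour, to show where they differ. Of 12 tested hydrolases of acinar cells outside the 10, none passed the limma test (4 at an unadjusted p under 0.05), 11 were lower in YFP+, and their median was -1.65. The 3 with the smallest p were the trypsinogen Try5 (-1.90, adjusted p = 0.265), the tissue kallikrein Klk1 (-3.07, adjusted p = 0.273) and the trypsinogen Prss1 (-1.83, adjusted p = 0.364). By slide this list had a median of -4.17 on slide 3, -0.56 on slide 1 and -0.56 on slide 2. With tumour as a block 2 of the 12 were called lower, Try5 (adjusted p = 0.048) and colipase, the cofactor of pancreatic lipase (Clps, -1.83, adjusted p = 0.029). Chymotrypsin C (Ctrc) was the one with a positive difference (1.32, SE 0.79, adjusted p = 0.60). In the blocked fit 8 of the 12, Ctrc among them, had an unadjusted p under 0.05, in place of 4. Without slide 3 the list's median was -0.55, with 8 of 12 below 0.

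Of 17 tested secretory and granule genes of acinar cells that are no digestive enzymes, 2 fell in YFP+ arrays and all 17 differences were below 0 (15 of 17 with median centring), with a median of -2.43. Without slide 3 the median was -0.63, 12 of 17 were below 0 and limma called none. In that fit 2 had an unadjusted p under 0.05, against 13.6% of all features in either direction. The 2 genes called over all 12 arrays were Dmbt1, a mucosal scavenger receptor protein that epithelia also make (-3.33, SE 0.50, adjusted p = 0.0047), and the trefoil peptide Tff2, which mucous cells also make (-2.43, SE 0.49, adjusted p = 0.025). Their within-slide differences were -4.42, -2.21 and -3.37 for Dmbt1 and -3.15, -0.93 and -3.21 for Tff2 on slides 3, 2 and 1. The Reg genes, secreted lectins that rise in injured acinar cells, showed differences of -2.43 (Reg2) to -3.41 (Reg3g) without a call in the unblocked fit. Reg2 was well above background on 6 YFP+ arrays, Reg1, Reg3a and Reg3b on 4, and Reg3d and Reg3g on 3. The YFP+ levels of all but Reg2 are therefore partly bounds. Reg3g differed by -7.81 on slide 3, 1.62 on slide 2 and -4.04 on slide 1, and the other Reg genes were below 0 on each slide. With tumour as a block 5 of the 17 were called lower, Dmbt1, Tff2, Reg1 (adjusted p = 0.021), Reg2 (adjusted p = 0.023) and Reg3b (adjusted p = 0.011). Gatm, which makes the creatine precursor and is abundant in acinar cells, had a difference of 0.00 (SE 0.29). Among 6 acinar transcription factors only Rbpjl passed the filter on dim probes, with a difference of -0.14 (SE 0.36, adjusted p = 0.94) that turned to 0.06 with median centring; Ptf1a was well above background on 2 YFP+ and 2 YFP− arrays, and Bhlha15, Nr5a2, Gata4 and Foxp2 on 0 to 3 arrays of either group.

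Islet cells are the hormone-making part of the same organ. Of 13 endocrine markers 5 passed the filter, none was called by limma (0 at an unadjusted p under 0.05), 4 of the 5 were higher in YFP+ (all 5 with median centring and 3 with normexp) and the median was 0.40. The smallest p were those of Pcsk2 (0.67, adjusted p = 0.64), Gcg (0.52, adjusted p = 0.78) and Ins1 (0.40, adjusted p = 0.93), and the insulin gene Ins2 differed by -0.09. Gcg was well above background on 5 YFP+ arrays and 1 YFP− array. It therefore passed the filter mainly through the YFP+ arrays, and its YFP− level is mostly a bound. The summed signal of the 5 was 0.90 to 4.83 on YFP+ arrays and 0.767 to 1.77 on YFP− arrays.

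Lists of markers of other cells of the tumour had medians below 0 on each slide. Of 15 ductal and tumour epithelial genes 6 fell in YFP+, among them Krt18, Muc1, Sox9, Krt8 (-2.59, SE 0.33, adjusted p = 0.0015) and Krt19 (-2.94, SE 0.47, adjusted p = 0.0066), and all 15 were below 0. Sox9 was well above background on 1 YFP+ and 5 YFP− arrays, so it passed the filter mainly through the YFP− arrays and its YFP+ level is mostly a bound. Their median was -2.03 over all arrays, -1.98 without slide 3 (4 called), and by slide -2.02 on slide 3, -1.62 on slide 2 and -1.99 on slide 1. Of 11 fibroblast genes 7 fell (Col1a1, Col1a2, Col3a1, Dcn, Lum, Postn and Mfap5), for example Mfap5 (-2.59, SE 0.29, adjusted p = 0.00072), with slide medians of -2.0, -2.09 and -1.53 for slides 3, 2 and 1 and 4 called without slide 3 (Lum was lost with tumour as a block, adjusted p = 0.10). Of 6 red cell genes 4 fell (Hbb-b1, Hbb-b2, Hba-a1 and Hba-a2), for example Hbb-b2 (-2.38, SE 0.44, adjusted p = 0.014), with slide medians of -2.37, -1.78 and -1.94 for slides 3, 2 and 1 and 1 called without slide 3 (2, Hbb-b1 and Hbb-b2, with tumour as a block). The macrophage list had a median of -0.16 (0.05 with median centring), and its smallest p were those of Mrc1 (-0.42, adjusted p = 0.44), Itgam (-0.52, adjusted p = 0.68) and C1qc (-0.20, adjusted p = 0.74). The summed signal of the epithelial list was 5.58 to 12.6 on YFP+ arrays and 17.0 to 43.9 on YFP− arrays. That of the fibroblast list was 13.3 to 34.01 on YFP+ arrays and 50.6 to 132 on YFP− arrays, and that of the red cell list was 8.99 to 54.8 on YFP+ arrays and 61.7 to 153 on YFP− arrays. For the 10 enzymes it was 4.62 to 28.6 on YFP+ arrays and 13.1 to 111 on YFP− arrays. Whether RNA of other cells had a part in the enzymes' differences was not tested.

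**Figure D4:**
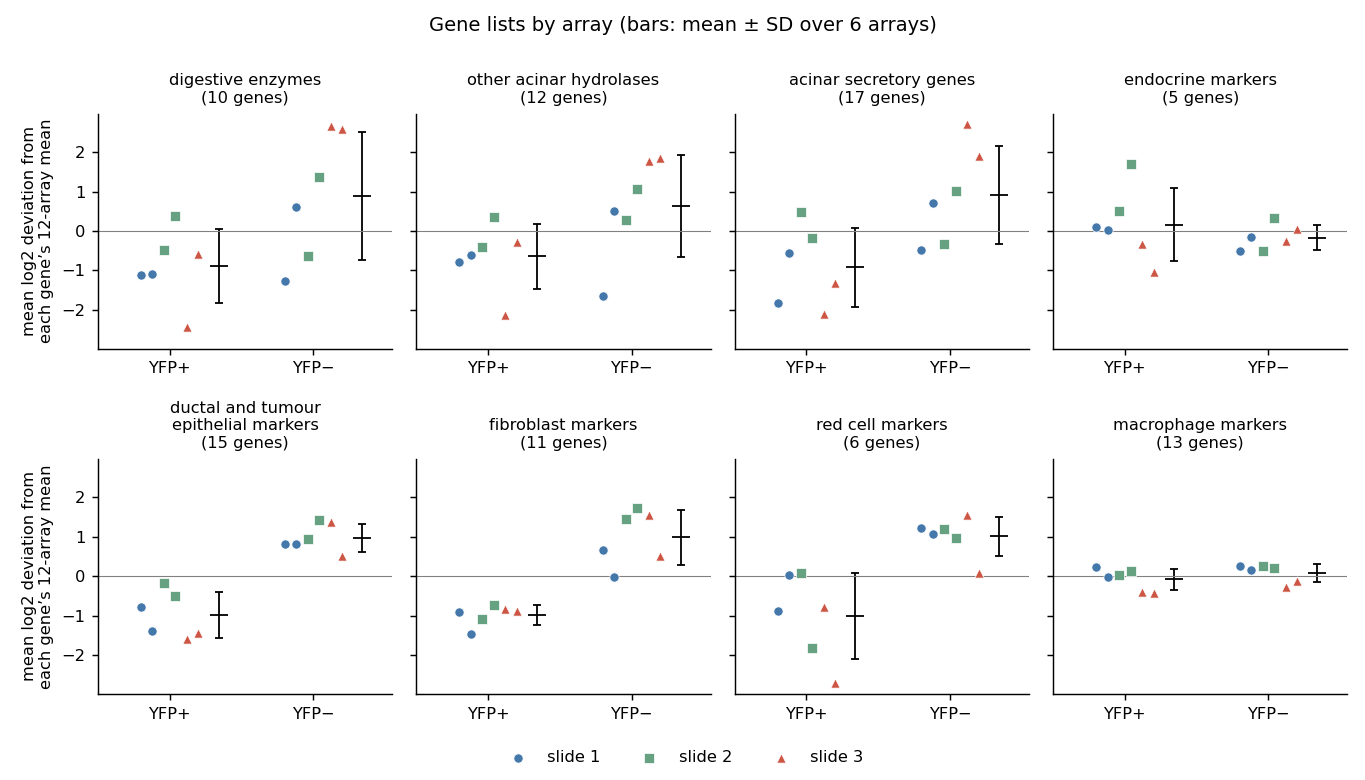
Mean log2 deviation of each gene list from its genes' 12-array means, by array, for YFP+ arrays at the left and YFP− arrays at the right of each panel. Points are arrays with slide by shape and colour, and bars give the mean ± SD of 6 arrays. The digestive enzymes run from -2.42 to 0.37 on YFP+ arrays and from -1.26 to 2.65 on YFP− arrays, and the epithelial markers from -1.58 to -0.16 on YFP+ arrays and from 0.51 to 1.43 on YFP− arrays.

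The genes whose pattern over the 12 arrays was most like the mean of the 10 enzymes were named by Pearson's r with that mean, as a description. Among genes of the acinar lists they were Try4 (r = 0.986), Try5 (0.952), Prss1 (0.943), Reg1 (0.935), Ctrl (0.905), Klk1 (0.886), Pnliprp1 (0.881) and Reg3b (0.877). Try4 and Try5 are trypsinogens, Ctrl is a chymotrypsin-like protease and Pnliprp1 a relative of pancreatic lipase. Among annotated genes of no acinar list they were Amy1 (r = 0.972), Gm5409 (0.934), Gm5771 (0.917), Klk1b5 (0.911), Egfbp2 (0.909), Wnt7b (0.895), Lyve1 (0.889) and Mboat1 (0.875). Klk1b5 and Egfbp2 are relatives of Klk1, Gm5409 is listed by RefSeq as a pseudogene with the synonym Try10l, Wnt7b is a secreted Wnt ligand, and Lyve1 is a hyaluronan receptor of lymphatic vessels that tissue macrophages also carry. Lyve1 differed by -0.98 between the groups (adjusted p = 0.25) and by -1.90 on slide 3.

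The sequences before the transcription start are given for 3 members. Their 300-base RefSeq promoter windows (250 bases before the start to 50 after, build GRCm38.p6) held both an E box and a TC box. These are the motifs that the PTF1 complex is known to bind. No distance between the 2 boxes was required, and the spacing of a PTF1 site was not tested. The letters searched were CACCTG or CAGGTG for the E box and TTTCCC or GGGAAA for the TC box, which covers both strands, and no match of one overlapped a match of the other in the members' windows. All 10 members had a promoter entry. The E box was in 6 of the 10 windows (Cela1, Cela2a, Cela3b, Cpb1, Prss2 and Cel), against 20.2% of all 32851 windows. The TC box was in 7 (Cela1, Cela2a, Amy2a5, Cpa1, Prss2, Ctrb1 and Cel), against 25.2%, and both were in 4 (Cela1, Cela2a, Prss2 and Cel), against 4.86%. Only Pnlip had neither. Such matches describe letters and do not show binding, and these arrays measure none. Whether the motifs had a part in the members' shared pattern over the arrays was not tested. The 200 bases before the start are printed with the matches in capitals, Cela1 for chr15:100687921-100688120 on the minus strand, Prss2 for chr6:41521576-41521775 on the plus strand and Cel for chr2:28563404-28563603 on the minus strand, all GRCm38.p6.
Cela1 promoter: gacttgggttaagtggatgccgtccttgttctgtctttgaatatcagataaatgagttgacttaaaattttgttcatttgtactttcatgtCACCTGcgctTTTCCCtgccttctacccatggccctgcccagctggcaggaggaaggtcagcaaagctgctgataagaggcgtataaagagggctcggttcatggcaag
Prss2 promoter: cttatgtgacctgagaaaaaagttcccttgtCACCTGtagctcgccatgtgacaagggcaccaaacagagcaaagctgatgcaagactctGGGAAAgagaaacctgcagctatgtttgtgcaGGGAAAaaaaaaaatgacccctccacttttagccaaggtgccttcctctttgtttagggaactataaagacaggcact
Cel promoter: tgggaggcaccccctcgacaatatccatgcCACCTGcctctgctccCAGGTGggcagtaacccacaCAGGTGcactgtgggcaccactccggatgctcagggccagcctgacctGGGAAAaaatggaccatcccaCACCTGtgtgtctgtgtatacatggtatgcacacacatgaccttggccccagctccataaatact
In Cela1 the 2 matches start 109 and 99 bases before the transcription start. In Prss2 the E box starts 169 bases before it and the TC boxes 110 and 78 bases before it. Cel holds 4 E boxes, starting 170, 154, 134 and 65 bases before the start, and 1 TC box at 86 bases. Of these 3 genes Cela1 passed limma's unblocked test between the groups, and Prss2 and Cel, with differences of -1.90 and -2.19, did not.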

How the data were processed

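Total RNA of sorted macrophages was amplified with the Sigma-WTA2 kit, labelled with Cy5 and hybridised to Agilent 4x44K mouse arrays, per the labels' protocols. The deposited scanner files hold intensity values per spot, which the authors extracted with Agilent Feature Extraction 11.5.1.1, background-subtracted in the processed signal, per the file headers. The value table the authors deposited holds log2 values that rank the probes as the scanner files do (lowest Spearman correlation 0.9999), with a median of 8.83 in every column; how they were normalized is not given in the sources used here, and they served as an alternative.

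From the files, log2 of the red processed signal minus the array's 75th percentile was taken, 1377 control spots and 35 probes missing on some array were left out, and spots of 1 probe were averaged. Of 39429 probes, 28330 were named through their RefSeq accession and the others kept the array's own name. A probe was kept where 6 or more of the 12 arrays were well above background, and the brightest probe stood for a gene, which gave 20370 features. limma 3.58.1 (R 4.3.3) fitted the group alone (lmFit, eBayes); slide and interaction tests used F tests, and p-values were Benjamini-Hochberg adjusted over all features. The unblocked group fit and the slide and interaction tests were tried on simulated data, and the fits with a block were not. Slides were told apart by the array barcodes of the scanner files.

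The unblocked fit was the main one. Pairing comes from the sample titles, which give a tumour number to 1 YFP+ and 1 YFP− sample. Deviations from the group means correlated over 0.1 in 4 of 6 pairs (-0.297 to 0.374). The own number gave the highest correlation for tumours 4 (0.374), 5 (0.186) and 6 (0.28), whose 2 arrays shared a slide. The 2 arrays of tumours 1 (-0.297), 2 (0.113) and 3 (-0.127) lay on different slides. Slide and tumour cannot be told apart in these correlations, so they do not test the pairing. The fit with tumour as a block is given beside a result where it changes the call or moves a count by over 1.5 times.

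The members, lists and tests were chosen with earlier results of these data known. Named are all members, from each other list the genes past the threshold or else the 3 with the smallest p, and the 8 acinar and 8 other annotated genes most like the members' mean; Ctrc, Clps, Gatm, Ins2 and the Reg genes were added after their values were seen. A gene could be tested only under a name on the array, so Prss3, Try10 and Amy2b were not analysed here, and 1 list gene that the rule would name is not reported here. Alternatives changed background correction, normalization, filter, probe rule, blocks and the arrays used.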

Additional observations from a re-analysis of the deposited data

Results flagged for a closer look

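Of 22 sets of 6 arrays (11 member probes in each group), 2 held an array that stood far from the others by Dixon's criterion, where chance flags about 1 in 20 sets. At the main Amy2a5 probe the YFP+ array of tumour 3 was at 0.35, with the next YFP+ array at 2.47, a gap of 0.641 of the group's range. At the Cela1 probe the YFP− array of tumour 3 was at -3.89, with the next YFP− array at -1.20, a gap of 0.644 of the range. Without the YFP+ array of tumour 3 the Amy2a5 difference (YFP+ minus YFP−) was -1.10, against -1.54 with it. Without the YFP− array of tumour 3 the Cela1 difference was -3.99 (limma, adjusted p = 0.0119), against -3.43 (adjusted p = 0.0495) with it.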

How the results depend on the processing

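All 10 members kept a lower mean in YFP+ arrays in each fit, except Pnlip without slide 3 (0.00), on slide 1 alone (0.19) and without the YFP− arrays of slide 3 and the YFP+ array of tumour 3 (0.09), and Cela2a on slide 2 alone (0.70); the cause was not tested. The one called member, Cela1, was no longer called, leaving 0 members called in limma's test, with slide as a block (adjusted p = 0.0564), quantile normalization (0.0743), the authors' value table (0.0742), median centring (0.0684), no filter on dim probes (0.0741), every probe alone (0.054), any slide left out or alone, or either added set of arrays left out; with all 12 arrays required above background its probe was not tested. Over its alternatives its adjusted p ran from 0.00763 (normexp, offset 50) to 0.724 (slide 1 alone), and leaving out 1 array at a time gave 0 to 1 members called and differences of -3.99 to -3.15.

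Over all features 356 were called, against 556 with slide as a block, 547 with normexp, 233 with all 12 arrays above background, 151 without slide 1, 112 without slide 2, 196 without slide 3, and 0 on any slide alone, and 266 to 383 with 1 array left out. The slide test called 4195, and 2657 to 4066 with 1 array left out. The interaction called 2, against 0 with normexp, with all 12 arrays above background or with intensity trend and robust variances, 15 with no filter, and 0 to 6 with 1 array left out; members were called in none of these. Median centring moved the median difference of all features to 0.18 and that of the members to -1.37, and 33.5% of its calls were higher in YFP+ against 19.1% in the main fit.

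With the replicate block (tumour number) 296 features and 1 member, Amy2a5, were called; beside the changes given with the results, it called 8 ductal genes in place of 6 and changed no other call of a member or list gene. With tumour as a random block 431 features and 1 member, Cela1 (adjusted p = 0.0361), were called. With both arrays of 1 tumour left out in turn, chosen after the values were seen, the replicate block gave 254, 185, 137, 140, 93 and 160 features without tumours 1 to 6 and 0 to 1 members; the 1 was Prss2 without tumour 2 (adjusted p = 0.0425). Signal over background limits Cela1 on 4 of 6 YFP+ arrays and the second Amy2a5 probe on 1.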
